A study of Rattus norvegicus with 15 samples.

Results

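The resting synovium of the rat is described here from the 5 control libraries of a series of 15, the libraries of wild-type rats that received no treatment (control replicates 2, 7, 11, 14 and 17). They were chosen by their labels and by no measured value, and all 23342 gene symbols of the table were considered. The other libraries of the series came from rats with adjuvant-induced arthritis, with or without an antibody, and were not used. Each control library is taken as 1 rat, since the control titles carry different numbers. The labels give no strain, sex, age, joint or way of dissection, so the libraries can be read only as pieces of joint lining from untreated animals.

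Synovium is the soft tissue that lines a joint. A thin lining layer of fibroblasts and macrophages faces the cavity, and its fibroblasts release lubricin and hyaluronan into the joint fluid. Beneath it lies a sublining of looser connective tissue with blood and lymphatic vessels, nerve twigs, resident macrophages and, in many places, fat. A bulk library mixes the RNA of all these cells, so that fewer cells of a type and less RNA per cell cannot be told apart.

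Levels are given as FPKM, in which a count is scaled by gene length and by the total of the library, so that genes of different length can be set side by side. Lists of 5 values follow the order of replicates 2, 7, 11, 14 and 17, and means are followed by the SD (n = 5). Between 32261603 and 34084345 counts were assigned to genes per library, and Spearman correlations between pairs of libraries across genes ran from 0.975 to 0.984. A mean of at least 1 FPKM was reached by 12149 genes, at least 10 by 5766, at least 100 by 624 and at least 1000 by 53, while 1628 symbols had no count in any of the 5 libraries. Control replicate 2 stands apart. It carried 1166 FPKM of the skeletal muscle actin Acta1, against 0.0206 to 6.28 FPKM in the other control libraries, and values that rest on it are given with and without it.

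Markers of the cell types of synovium were expressed. All 12 of the 12 lining fibroblast markers and 15 of the 16 sublining fibroblast markers had a mean of at least 1 FPKM, as did all 20 resident macrophage markers and all 23 blood endothelial markers. Of all 23342 symbols, 12149 reached 1 FPKM, 5766 reached 10 FPKM and 624 reached 100 FPKM. Those numbers belong beside these and later counts of list members, which do not by themselves set the tissue apart. Markers of skin, bone and nerve cell bodies were low. Of 11 keratinocyte markers only 7 were in the table, and 1 of these reached 1 FPKM. The basal keratin Krt14 averaged 0.0653 ± 0.0932 FPKM, and the desmosomal cadherin Dsg3 had 0 counts in all 5 libraries. Of 12 osteoblast and osteocyte markers 5 reached 1 FPKM and 0 reached 10 FPKM. The highest of them was Spp1 (osteopontin, a protein of bone and of macrophages) at 3.57 ± 1.48 FPKM, and Sost, encoding the osteocyte product sclerostin, had 0 counts in all 5 libraries. Of 17 neuron markers 3 reached 1 FPKM, namely the intermediate filament peripherin (Prph) at 3.33 ± 0.555 FPKM, the growth cone protein Stmn2 at 2.35 ± 0.681 FPKM and the ubiquitin hydrolase Uchl1 at 1.63 ± 0.674 FPKM. The neuronal tubulin Tubb3 and the synaptic protein Snap25 averaged 0.4899 ± 0.0945 and 0.1702 ± 0.0248 FPKM. A count of 0 over the 5 libraries allows a level of up to 0.0182 CPM (counts scaled to the library total), for counting error only. It does not cover genes that the uncertain annotation may undercount, a question raised below by the low level of Aldoa. Whether this lowers any of the markers found low or at 0, here or below, was not tested.

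The transcriptome was led by mitochondrial, ribosomal, fat and secreted-protein transcripts. The 100 genes of highest mean FPKM held 42.8 ± 3.36% of the summed FPKM and consisted of 11 mitochondrially encoded genes, 45 ribosomal protein genes and 44 others. The 13 mitochondrially encoded genes took 20.2 ± 3.32% of the summed FPKM (21.2, 19.5, 19.02, 25.3 and 16.3%), with the cytochrome oxidase subunit COX1 highest of all genes at 19850.2 ± 3694 FPKM. The ribosomal protein genes took 11.7 ± 1.28%. Outside these classes the first place was held by Fabp4, the fatty acid binding protein of adipocytes, at 5849 ± 296 FPKM. Car3 (carbonic anhydrase 3, abundant in fat), Fth1 (ferritin heavy chain), Apoe (apolipoprotein E), Cst3 (cystatin C), the elongation factor Eef1a1 and Cfd (adipsin) followed at 3609, 3415, 3235, 3231, 3179 and 3136 FPKM. These neighbours overlapped from library to library, and Apoe exceeded Cst3 in 2 of 5 libraries. Actin and filament genes were also near the top, with Tmsb4x (thymosin beta 4) at 2972 ± 393 FPKM and Vim (vimentin) at 1604 ± 235 FPKM.

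**Figure D1:**
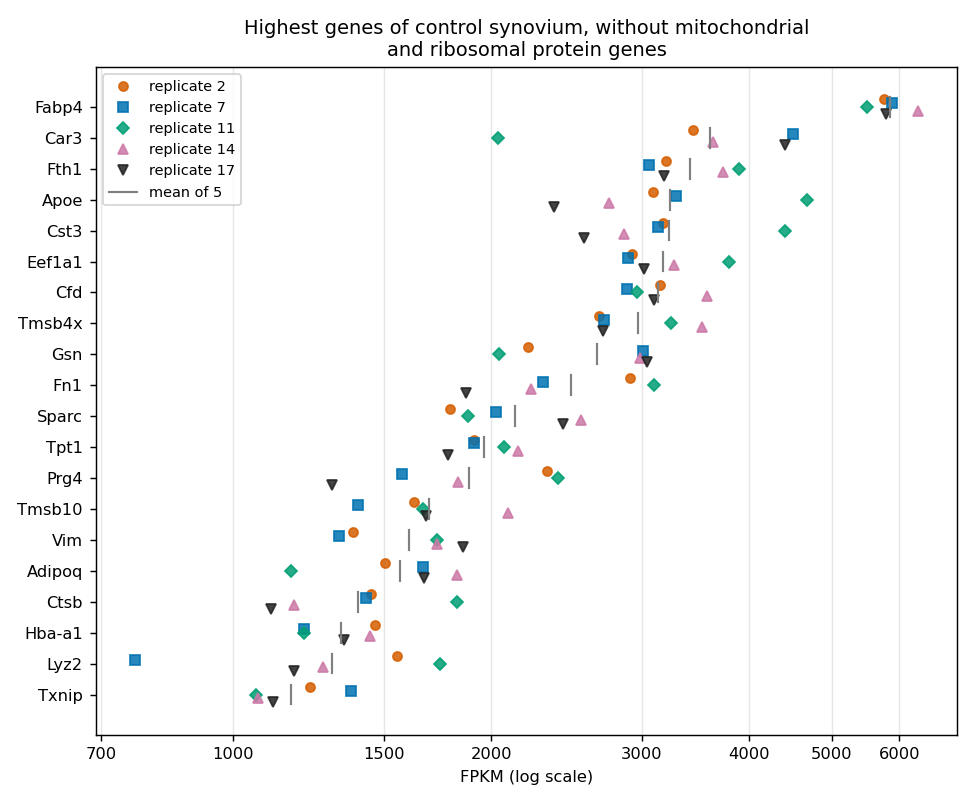
FPKM (log axis) of the 20 genes of highest mean in control synovium, after mitochondrially encoded and ribosomal protein genes are set aside; each symbol is 1 library and the grey bar the mean of 5. Fabp4 lies above all others in every library, while Car3 falls to 2038 FPKM and Apoe rises to 4675 FPKM in replicate 11.

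Set out by category, fat genes took 3.64 ± 0.511% of the summed FPKM, secreted-protein genes 2.77 ± 0.3903%, matrix genes 2.22 ± 0.278%, immune genes 2.05 ± 0.154%, vessel genes 0.737 ± 0.121% and nerve genes 0.134 ± 0.00949%. Muscle genes took 0.259 ± 0.517%, a mean set by replicate 2 alone, and 0.0277 ± 0.00793% without it (n = 4). These shares depend on the lists (from 24 genes for fat to 147 for immune) and on the scale. Matrix genes are long and took 5.05% of the counts, ahead of fat at 2.63%. Categories also share genes. Cfd (adipsin) is counted under fat and, through the complement list, under immune. Cfd was the highest gene of the complement list, at 6.47 times the next in mean level. That list alone took 1.19% of the summed FPKM.

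**Figure D2:**
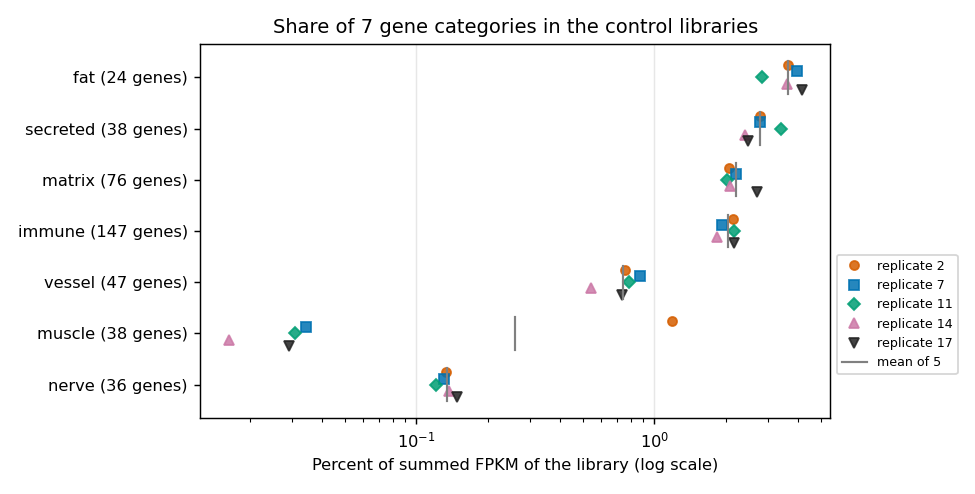
Share of the summed FPKM of each library (percent, log axis) taken by 7 gene categories; symbols are libraries and the grey bar is the mean of 5. The libraries differ far less for the other categories than for muscle genes, which hold 1.18% in replicate 2 and 0.0163 to 0.0346% in the others. The matrix share is highest in replicate 17, at 2.70%, against 2.02 to 2.21% in the others.

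Adipocyte transcripts were abundant in every library, and the brown fat gene Ucp1 was not detected. Of 24 adipocyte genes, 23 had a mean of at least 10 FPKM and 15 of at least 100 FPKM, with a median mean level of 153 FPKM against 9.22 FPKM over all genes with a mean of at least 1. The gene that did not reach 10 FPKM was Ucp1, the uncoupling protein of brown fat, which had 0 counts in all 5 libraries. Cidea was among the 23 that did, and whether fat of the brown type was present was not tested. Adipoq, encoding the fat hormone adiponectin, was at 1505, 1665, 1167, 1823 and 1669 FPKM, lowest in replicate 11. Cfd, encoding adipsin, a protease of the alternative complement pathway that fat secretes, was at 3149, 2886, 2965, 3580.1 and 3100.2 FPKM and varied little, with an SD of 0.12 on the log2(FPKM + 1) scale. Fabp4 varied less still, with an SD of 0.07.

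Genes of lipid droplets and lipolysis spread more widely than Fabp4 and Cfd. Plin1, encoding the lipid droplet coat protein perilipin 1, had 479.5, 591, 352, 524 and 752 FPKM, and Lpl, encoding the lipoprotein lipase that frees fatty acids from blood lipoproteins, had 315, 324, 188, 316 and 388 FPKM. Both were lowest in replicate 11 and highest in replicate 17. Angptl4, encoding a secreted inhibitor of lipoprotein lipase and the target of the antibody in the wider series, was at 73.6 ± 18.1 FPKM (52.6 to 94.3), and Thrsp, a gene of lipogenic tissue, at 646 ± 111 FPKM. Car3 had 3448, 4509, 2038, 3637 and 4413 FPKM, so that replicate 11 lay below the other libraries. In all, 14 of the 23 adipocyte genes were lowest in replicate 11 and 10 were highest in replicate 17. The same count over all genes was not taken, here or for other lists, so such counts describe the members only. When the libraries were scaled by TMM or by DESeq2 size factors, replicate 11 again had the lowest adipocyte score, while the highest score passed to replicate 14.

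Single fat genes departed from this order. Scd, encoding the desaturase that makes monounsaturated fatty acids, had 112, 79.2, 101, 194 and 40.8 FPKM, highest in replicate 14 and lowest in replicate 17. Slc7a10, encoding an amino acid transporter of adipocytes, had 8.63, 42.4, 6.81, 18.8 and 57.5 FPKM, high in replicates 7 and 17. Retn, encoding resistin, which rodent adipocytes secrete, had 665, 704, 349.6, 275 and 461 FPKM, and Lep, encoding leptin, 79.3, 48.3, 46.9, 69.9 and 49.8 FPKM. Retn was higher in replicates 2 and 7 than in the rest, and Lep was higher in replicates 2 and 14. Oxtr, encoding the oxytocin receptor, stood at 114 FPKM in replicate 14 and at 14.1 to 27.96 FPKM elsewhere.

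The lining layer was represented by lubricin far above its other markers. Prg4, encoding lubricin, the boundary lubricant of joints, had 2323, 1573, 2396, 1831 and 1304 FPKM and ranked number 23 of all genes. Htra4, a secreted serine protease, came next at 809 ± 116 FPKM, and Prg4 exceeded it 1.71 to 3.25 times within each library. Clic5, an intracellular chloride channel protein, followed at 154 ± 26.9 FPKM and Hbegf, an EGF receptor ligand, at 124 ± 29.2 FPKM, while Cd55, a complement inhibitor on the cell surface, was at 34.05 ± 12.2 FPKM. Prg4 was lowest in replicate 17, whereas Hbegf and Cd55 were lowest in replicate 7, at 78.9 and 17.8 FPKM. The mean log2 score of the lining list was accordingly lowest in replicate 7 (-0.34 relative to the mean of 5) and highest in replicate 14 (0.18).

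Hyaluronan, the long sugar polymer of joint fluid, is made at the cell membrane by 3 synthases. Has1 had 22.2, 13.8, 27.6, 23.2 and 13.6 FPKM, while Has2 averaged 0.765 ± 0.1805 and Has3 0.801 ± 0.258 FPKM. Has1 was thus 12.1 to 42.1 times Has3 within each library, and Has3 and Has2 changed places between libraries. Ugdh, the enzyme that supplies the glucuronic acid precursor, stood at 52.04 ± 8.15 FPKM, and Hyal2, a hyaluronidase anchored to the membrane, at 45.4 ± 7.99 FPKM. Has1 was lower in replicates 7 and 17 than in the other libraries, as Prg4 was. Of the 16 genes of hyaluronan synthesis and turnover 10 reached a mean of 1 FPKM, and they took 0.0642 ± 0.00732% of the summed FPKM.

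Sublining fibroblast genes were led by Gsn (gelsolin, an actin-severing protein that is also secreted) at 2657 ± 489 FPKM, Clec3b (tetranectin) at 416 ± 125 FPKM and Dpt (dermatopontin, a collagen-binding matrix protein) at 279 ± 64.9 FPKM. Cd34, a surface marker of sublining fibroblasts and of endothelium, was at 79.3 ± 18.6 FPKM. The SD was largest for Sfrp2, a secreted antagonist of Wnt signalling, which had 14.7, 23.7, 5.21, 15.2 and 41.3 FPKM. It was lowest in replicate 11 and highest in replicate 17, and 7 of the 15 sublining genes were highest in replicate 17 and 7 lowest in replicate 11.

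Further secreted proteins were those that bind growth factors, mineral or proteases. Of 38 genes of this list 36 had a mean of at least 1 FPKM and 15 of at least 100 FPKM. Cst3, an inhibitor of cysteine proteases, had 3177, 3134, 4415, 2862 and 2569 FPKM, and Apoe, a lipid carrier that macrophages and many stromal cells make, 3093, 3292, 4675, 2746 and 2368 FPKM. Both were highest in replicate 11 and lowest in replicate 17. Igfbp7, which binds insulin-like growth factors weakly, was even across libraries at 742 ± 70.7 FPKM, and Igfbp6, which prefers IGF-II, was not, with 136, 168, 109.6, 332 and 467 FPKM. Mgp, an inhibitor of calcification, had 732 ± 199.99 FPKM. Of the CCN matricellular proteins, Ccn2 (connective tissue growth factor) had 608, 453, 790.4, 601 and 543 FPKM and Ccn1 19.6, 26.1, 13.5, 8.75 and 53.8 FPKM. Ccn2 was highest in replicate 11 and Ccn1 in replicate 17.

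Protease genes were expressed together with their inhibitors. Of 26 genes in this list 23 had a mean of at least 1 FPKM and 11 of at least 100 FPKM. The lysosomal cathepsins Ctsb and Ctsl had 1397 ± 282 and 741 ± 177 FPKM and were both highest in replicate 11. Among metalloproteinases, the gelatinase Mmp2 was at 141 ± 17.8 FPKM and the stromelysin Mmp3 at 62.7, 34.00, 55.5, 36.03 and 30.98 FPKM, whereas the collagenase Mmp13 averaged 0.725 ± 0.553 FPKM and the gelatinase Mmp9 0.419 ± 0.516 FPKM. Mmp9 was at 1.21 and 0.672 FPKM in replicates 7 and 17 and below 0.1 FPKM in the others. The tissue inhibitors of metalloproteinases were ordered Timp2 (389 ± 32.1 FPKM), Timp3 (174 ± 7.32 FPKM), Timp4 (47.6 ± 8.66 FPKM) and Timp1 (42.1 ± 7.82 FPKM). Timp2 was 2.12 to 2.46 times Timp3 in every library, and Timp4 and Timp1 overlapped, with Timp4 higher in 4 of 5. Timp3 varied little, with an SD of 0.06 on the log2 scale.

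The matrix genes of highest mean were the glycoproteins Fn1 and Sparc. Fn1, encoding fibronectin, had 2911, 2299.5, 3102, 2229 and 1871 FPKM, highest in replicates 2 and 11 and lowest in replicate 17. Sparc, encoding the collagen-binding protein osteonectin, had 1789, 2025, 1881, 2548 and 2429.5 FPKM, highest in replicates 14 and 17. Of the small proteoglycans, decorin (Dcn) was at 956 ± 173 FPKM and biglycan (Bgn) at 359 ± 42.01 FPKM, and the fibrillar collagens Col3a1, Col1a1 and Col1a2 lay between them in mean level. Of 76 matrix genes 66 had a mean of at least 1 FPKM, 54 of at least 10 FPKM and 17 of at least 100 FPKM.

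Among the fibrillar collagens, Col3a1, the chain of type III collagen of soft tissues, had 519, 688, 394, 856 and 1338 FPKM. Col1a1 had 283, 466, 224, 429 and 806 FPKM and Col1a2 226, 351, 163, 391 and 686 FPKM, the chains of type I collagen. All 3 genes were lowest in replicate 11 and highest in replicate 17, and the order Col3a1, Col1a1, Col1a2 held in 5 of 5 libraries although the ranges overlapped. Col1a2 was 4.22 times higher in replicate 17 than in replicate 11. Of the other collagens, Col6a1 had 138 ± 33.4 FPKM and the basement membrane chain Col4a1 246 ± 47.8 FPKM. Col4a1 did not follow the fibrillar chains, for it was lowest in replicate 17, at 189 FPKM. The share of the summed FPKM in the 19 fibrillar and associated collagens ran from 0.237 to 0.7597%.

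Other matrix genes showed the same pair of libraries at their extremes. Postn, encoding periostin, had 38.5, 86.8, 22.3, 99.8 and 199 FPKM, Fndc1, encoding a protein with fibronectin type III domains, 10.3, 15.8, 7.48, 37.2 and 57.2 FPKM, and Lum, encoding the proteoglycan lumican, 41.9, 38.03, 24.6, 59.6 and 98.1 FPKM. Each was lowest in replicate 11 and highest in replicate 17, and replicate 17 was 3.22, 3.23 and 2.39 times the mean of the other control libraries. Comp (cartilage oligomeric matrix protein, also of tendon) was likewise highest in replicate 17, with 97.6 FPKM, and lowest in replicate 7, with 30.6 FPKM. Eln, encoding elastin, departed from this and was highest in replicate 7, with 152 FPKM against 58.4 to 81.03 FPKM elsewhere. Of the 66 matrix genes, 17 had an SD of at least 0.5 on the log2 scale (25.8%, against 2.82% of all 12149 genes). Without replicate 17, 10 matrix genes had one, and the share of all genes was not counted. Which cells or which piece of tissue these libraries differed in was not tested.

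Of the immune cell lists, that of macrophages had the highest levels, with a median of 63.6 FPKM over its genes, against 1.84 for neutrophils, 1.72 for MHC class II and dendritic cells, 0.568 for mast cells, 0.2804 for B and plasma cells and 0.247 for T and NK cells. All 20 macrophage genes had a mean of at least 1 FPKM, and 16 of at least 10 FPKM. Lyz2, encoding lysozyme, had 1552, 767, 1743, 1272 and 1178 FPKM. The complement C1q chains were even with each other at 334 ± 58.98 (C1qa), 311 ± 73.6 (C1qb) and 306 ± 62.6 (C1qc) FPKM, and the ratio of C1qb to C1qc was 0.967 to 1.05 across libraries. Genes that mark resident rather than recruited macrophages were expressed, among them the complement receptor Vsig4 (173, 101, 201, 88.02 and 97.01 FPKM), the folate receptor Folr2 (84.7, 79.5, 119, 77.2 and 82.7 FPKM), the haemoglobin scavenger receptor Cd163 (26.7 ± 9.28 FPKM) and the phosphatidylserine receptor Timd4 (4.94 ± 0.913 FPKM). Vsig4 was higher in replicates 2 and 11 than in the other 3 libraries. Of the 20 macrophage genes, 13 were highest in replicate 11, the library with the lowest collagen and adipocyte scores. The macrophage score of replicate 11 was 0.37, against -0.21 in replicate 17.

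**Figure D3:**
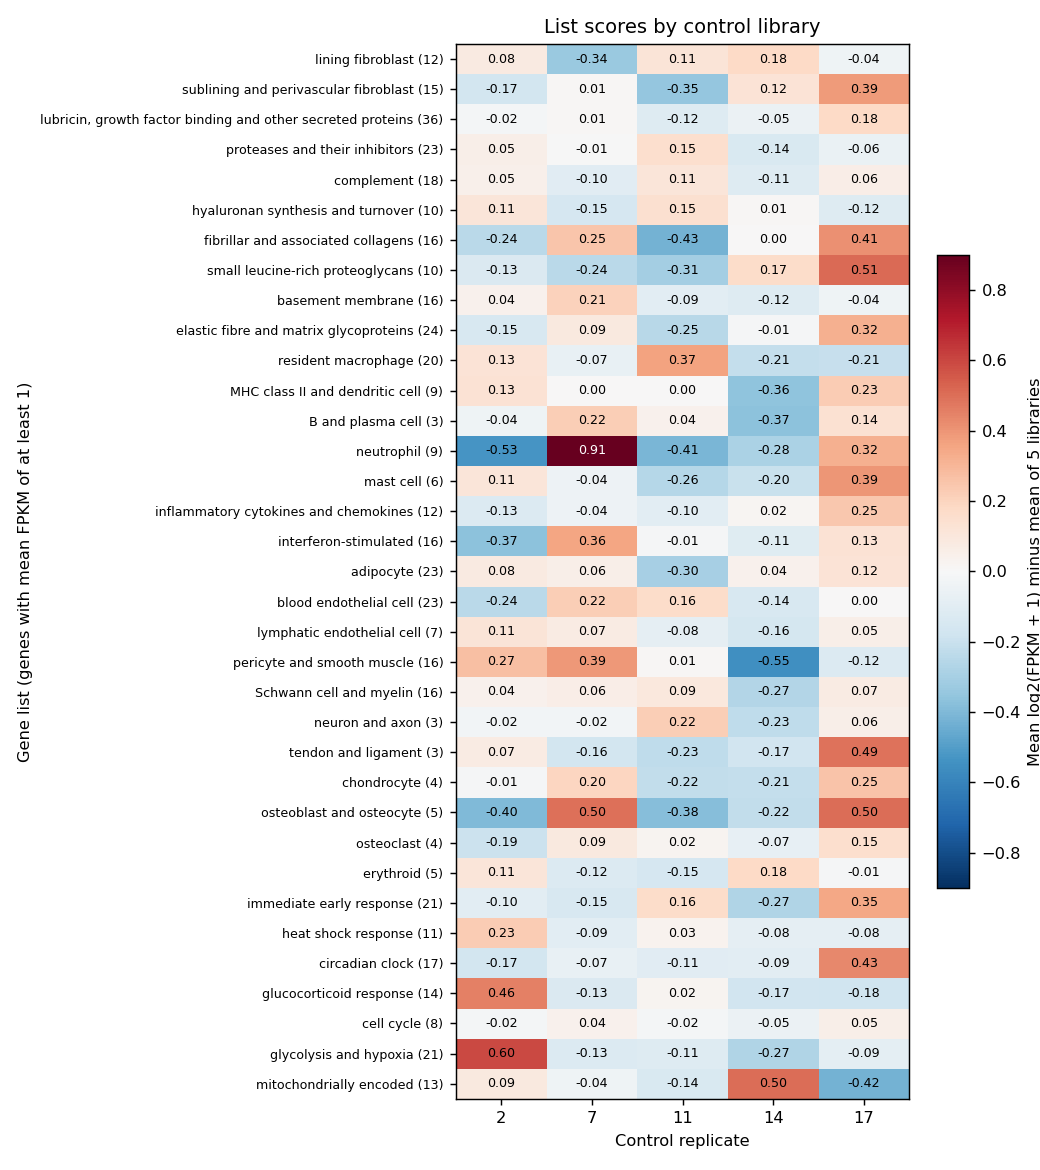
Mean log2(FPKM + 1) of each gene list in each control library, minus the mean of the 5 libraries (red higher, blue lower); the number of genes is in brackets, and the lists of muscle fibres, myogenic factors and sex-linked genes are left out. Replicate 17 has the highest scores for collagens (0.41) and clock genes (0.43), replicate 11 for macrophages (0.37), replicate 7 for neutrophils (0.91), and replicate 14 the lowest for pericytes and smooth muscle (-0.55).

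Antigen presentation was seen at the level of MHC class II. Cd74, the invariant chain, had 697, 589.6, 622, 407 and 683 FPKM and RT1-Da, a class II alpha chain of the rat, 284, 231, 248, 178 and 281 FPKM, both lowest in replicate 14. RT1 genes have near-identical relatives between which counting can split reads, so this level is uncertain. Of the 15 genes of the MHC class II and dendritic cell list 9 reached a mean of 1 FPKM.

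T cell transcripts were scarce. Of 18 T and NK cell genes 2 reached a mean of 1 FPKM, and 1 of them, Cd4, stood at 113, 96.4, 129, 90.6 and 90.4 FPKM. The other chains of the T cell complex were far lower, with Cd3e at 0.171 ± 0.165 FPKM, Cd3d at 0.0494 ± 0.0376 FPKM and the co-receptor Cd8a at 0.339 ± 0.155 FPKM. Macrophages of the rat, unlike those of the mouse, carry CD4 on their surface. Of 13 B and plasma cell genes 11 were in the table, and 3 of these reached a mean of 1 FPKM. They were Xbp1, Sdc1 and, lowest of the 3, the B cell receptor component Cd79a at 3.55 ± 0.849 FPKM. The immunoglobulin genes Ighm and Igkc and the T cell receptor gene Trac were not in the table, so their levels are unknown.

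Cytokine genes of inflammation were low, with a few exceptions. The arthritis cytokines Tnf, Il1b and Il6 averaged 1.08 ± 0.227, 0.784 ± 0.434 and 0.381 ± 0.319 FPKM, Il17a had a count in replicate 17 only (0.0266 FPKM), and the chemokine Ccl20 had none in any library. Cxcl13, a chemokine that attracts B cells, stood apart at 118, 139.9, 165, 124 and 108 FPKM, similar in all 5 libraries. Csf1, the growth factor that macrophages need to live, was at 35.4 ± 1.64 FPKM with an SD of 0.06 on the log2 scale, and Il33, an alarmin held in the nucleus of stromal cells, at 19.5 ± 3.46 FPKM. Ccl2, a monocyte attractant, had 1.62, 2.15, 1.92, 6.58 and 6.39 FPKM, higher in replicates 14 and 17. Of 22 cytokine and chemokine genes 12 reached a mean of 1 FPKM and 5 a mean of 10 FPKM.

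Complement genes were well represented, with 18 of 19 at a mean of at least 1 FPKM and 11 of at least 100 FPKM. Beside the C1q chains and adipsin, the inhibitor Serping1 (C1 inhibitor) had 431 ± 62.7 FPKM. The central component C3 was low, at 1.53, 1.67, 1.29, 0.918 and 2.25 FPKM, and the terminal component C7 had 6.89, 4.97, 0.202, 3.76 and 7.46 FPKM. Aldoa, a gene of glycolysis that cells in general use, was itself at 0.466 ± 0.169 FPKM in this table, and mouse genome builds are named for its making. Whether the annotation lowers single genes such as C3 was not tested. C7 was near 0 in replicate 11 and between 3.76 and 7.46 FPKM in the others.

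Interferon-stimulated genes were at moderate levels. Ifi27, an interferon-induced mitochondrial protein, had 220.1, 304, 307, 297 and 288 FPKM, lowest in replicate 2. Mx1, encoding an antiviral GTPase, had 12.5 FPKM in replicate 7 and 3.902 to 4.598 FPKM in the other libraries, and 9 of the 16 interferon genes that reached 1 FPKM were highest in replicate 7. Mast cell genes were low, with the chymase Cma1 at 9.56 ± 3.52 FPKM and the carboxypeptidase Cpa3 at 4.14 ± 2.06 FPKM, each highest in replicate 17.

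Several genes of granulocytes, and genes of bone and cartilage, were higher in a pair of libraries. S100a8 and S100a9, the calprotectin subunits of neutrophils, had 0.561, 19.5, 1.54, 2.54 and 7.93 FPKM and 0.207, 9.77, 0.894, 0.982 and 4.53 FPKM. The granule protein gene Ngp had 0, 6.91, 0.156, 0.502 and 0.699 FPKM. Of the defensin genes of granulocytes, Defa5 had 0, 2.701, 0, 1.06 and 9.08 FPKM, Np4 0, 3.34, 0, 0.352 and 6.39 FPKM and RatNP-3b 0, 4.01, 0, 0.643 and 6.54 FPKM. Defensin genes are close relatives, so the split of reads between them is uncertain. These genes were higher in replicates 7 and 17 than in the other 3 libraries, Ngp by little in replicate 17. Bglap, encoding the bone protein osteocalcin, had 0.1898, 7.001, 0.181, 0.797 and 5.68 FPKM and Col2a1, the collagen of cartilage, 0.0488, 3.68, 0.0174, 0.0118 and 1.49 FPKM, again high in replicates 7 and 17. Aggrecan (Acan) was at or below 0.301 FPKM in all libraries. Mpo, encoding myeloperoxidase, did not follow these genes and had 30.3, 23.7, 21.97, 22.5 and 48.7 FPKM. Whether bone or marrow was included with these pieces of tissue was not tested.

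Blood vessel genes were expressed in every library. All 23 blood endothelial genes had a mean of at least 1 FPKM, 22 of at least 10 FPKM, and their median SD on the log2 scale was 0.24, against 0.15 over all genes. Aqp1, encoding a water channel of capillary endothelium, had 475, 500.3, 592, 459 and 494 FPKM, and Plvap, a protein of endothelial fenestrae, 220.3, 296, 279, 236 and 274 FPKM. Pecam1 (CD31) was at 139 ± 21.3 FPKM and Vwf, encoding von Willebrand factor, at 27.1 ± 6.57 FPKM. E-selectin (Sele), the leukocyte adhesion molecule of activated endothelium, was low at 1.295, 4.797, 2.702, 4.14 and 4.38 FPKM and lowest in replicate 2. Of the 8 lymphatic endothelial genes 7 reached 1 FPKM, with the chemokine Ccl21 at 44.8 ± 10.95 FPKM, while the lymphatic transcription factor Prox1 was at 0.182 ± 0.121 FPKM.

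Genes of mural cells, the smooth muscle cells and pericytes around vessels, had a median SD of 0.41. Acta2, the smooth muscle actin, had 530.3, 614, 531, 245 and 354 FPKM, the actin-binding protein transgelin (Tagln) 484, 527, 504, 217 and 324 FPKM, and the smooth muscle myosin Myh11 105, 125, 99.6, 46.6 and 60.8 FPKM. All 3 were lowest in replicate 14 and next lowest in replicate 17. The pericyte gene Rgs5, a regulator of G-protein signalling, did not share this order, with 162, 208, 142, 208 and 245 FPKM. In all, 11 of 16 pericyte and smooth muscle genes were lowest in replicate 14 and 9 were highest in replicate 7. An SD of at least 0.5 was found for 7 of the 16 (43.8%), against 2.82% of all 12149 genes. Des (desmin) is shared with skeletal muscle and was highest in replicate 2, at 192 FPKM, against 41.4 to 72.8 FPKM in the other libraries.

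Genes of Schwann cells were more widely expressed than genes of neurons. Of 19 Schwann cell and myelin genes 16 had a mean of at least 1 FPKM, with a median level of 4.83 FPKM, against 3 of 17 neuron and axon genes, with a median of 0.0241 FPKM. S100b, a calcium-binding protein of Schwann cells that adipocytes also express, had 292, 284, 224, 413 and 332 FPKM. The myelin proteins Pmp22 and Mbp had 165 ± 14.4 and 22.5 ± 3.45 FPKM, and Sox10, the transcription factor that specifies Schwann cells, 2.72 ± 0.262 FPKM, a mean between those of the neuron markers Prph and Stmn2. Mbp was lowest in replicate 14, at 16.5 FPKM, while Sox10 varied little, with an SD of 0.10 on the log2 scale. Of the 16 genes, 11 were lowest in replicate 14, and the score of the list was lowest there (-0.27). The list took 0.133 ± 0.00949% of the summed FPKM, an even share in which S100b, highest in replicate 14, is the largest part.

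Skeletal muscle transcripts were a feature of replicate 2. Acta1 had 1166, 2.903, 6.28, 0.0206 and 1.15 FPKM, the muscle creatine kinase Ckm 855, 1.66, 2.82, 0.0198 and 0.482 FPKM and the fast myosin light chain Myl11 780.2, 1.48, 5.24, 0.488 and 0.611 FPKM. The fast troponin C gene Tnnc2 had 754, 2.64, 4.59, 0.751 and 0.976 FPKM and the fast IIb myosin heavy chain Myh4 404, 0.304, 0.819, 0 and 0.0656 FPKM. Replicate 2 thus held 186, 304, 149, 164 and 494 times the next highest control library for these 5 genes. Of the 11 muscle fibre genes with a mean of at least 1 FPKM in the other 4 libraries, 10 were highest in replicate 2. Over the muscle category 22 genes reached a mean of 1 FPKM with all 5 libraries and 11 without replicate 2. The slow and cardiac myosin heavy chain Myh7 had 0 counts in all 5 libraries. Genes of muscle stem cells were low even in replicate 2, where the myogenic factor Myod1 was at 0.902 FPKM and Pax7, the marker of satellite cells, at 0.0751 FPKM.

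Other genes stood high in the same library. H19, an imprinted noncoding RNA that skeletal muscle expresses, had 1244, 128, 86.4, 136 and 113 FPKM, and the glycolytic enzyme Gapdh 629, 258, 348, 282 and 265 FPKM. The small heat shock protein Cryab, abundant in muscle, had 42.98, 14.1, 16.9, 9.26 and 11.5 FPKM. Replicate 2 was the highest library for all 3, and it also had the highest scores for glycolysis (0.60) and for glucocorticoid response (0.46). The glycolysis list includes Eno3, which is also a member of the muscle fibre list. Of the glucocorticoid list, Fkbp5, a chaperone of the steroid receptor, had 27.04, 7.97, 14.7, 9.98 and 11.5 FPKM and Tsc22d3, which encodes the leucine zipper protein GILZ, 143, 56.9, 108, 69.5 and 73.98 FPKM, highest in replicate 2 with replicate 11 next. The part of muscle in these last values was not tested.

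The stretch upstream of the annotated start is shown for the muscle actin Acta1 and the myosin Myh4, which moved together. Both are among the muscle fibre genes whose window holds a motif marked below, and they do not stand for the whole list. The sequences are from RefSeq on the rat assembly GRCr8, 5′ to 3′ on the strand of the gene, and cover the 250 bases before the start, at chr19:68784195-68784444 (Acta1, minus strand) and chr10:52421898-52422147 (Myh4, plus strand). Capitals mark a CArG box, the motif that serum response factor binds, and in Myh4 also, upstream of it, the AT-rich motif of MEF2 factors.
Acta1: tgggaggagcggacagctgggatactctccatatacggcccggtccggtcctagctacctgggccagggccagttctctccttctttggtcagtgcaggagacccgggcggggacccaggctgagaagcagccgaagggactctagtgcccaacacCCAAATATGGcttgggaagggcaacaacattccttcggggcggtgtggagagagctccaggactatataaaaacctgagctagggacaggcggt
Myh4: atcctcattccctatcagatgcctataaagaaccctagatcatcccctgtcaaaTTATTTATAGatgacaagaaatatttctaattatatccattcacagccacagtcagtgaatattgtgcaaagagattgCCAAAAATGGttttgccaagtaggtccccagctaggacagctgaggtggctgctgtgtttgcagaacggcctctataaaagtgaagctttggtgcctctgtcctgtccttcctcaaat
The 26 muscle fibre genes with such a window had 27 windows, searched on both strands. The CArG box was in 3 of the 27 (11.1%, in Acta1, Myh4 and Myl3), against 1.497% of all 33469 windows. The MEF2 motif was in 4 of the 27 (14.8%, in Myh1, Myh4, Myl1 and Ttn), against 2.96% of all windows. A match describes letters and not a bound site.

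The spread between control libraries was small for most genes. Over the 12149 genes with a mean of at least 1 FPKM the median SD of log2(FPKM + 1) was 0.15 and the median coefficient of variation 11.9%. Counting error gave a median SD of 0.04, and 10041 genes (82.6%) had an SD of more than 2 times their counting SD. An SD below 0.1 was found for 2843 genes. The steadiest of the genes at 100 FPKM or more included Gnb1, a G-protein beta subunit, with 119, 121, 120.03, 121 and 119.6 FPKM, the nucleic acid binding protein Cnbp with 203 ± 2.898 FPKM and the vesicle transport protein Tmed10 with 137 ± 2.41 FPKM. Cell division genes were low, with Mki67 at 0.263 ± 0.0696 FPKM and Top2a at 0.277 ± 0.0656 FPKM, whereas Pcna, which also serves DNA repair, was at 39.3 ± 3.51 FPKM.

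An SD of at least 1 was found for 90 genes. For 70 of them replicate 2 was the library farthest from the median, always above it, and without replicate 2 the count was 26, of which 21 were among the 90. Genes just inside the limit were Cmya5 and Col2a1 (both 1.003) and just outside it Hrc (0.996) and Egr3 (0.989). Replicate 2 carried 37.4% of the summed squared deviations of all genes and replicate 17 20.1%. With the muscle fibre list set aside, replicate 2 still carried the largest part, 28.8%, and replicate 17 23.1%. That list leaves out some muscle genes, such as Myl11. With the 90 genes set aside instead, replicate 2 carried the smallest part, 15.1%, and replicate 17 the largest, 27.6%. Those genes were picked by their spread, so setting them aside lowers the part of replicate 2 by construction. Among the genes still past the limit without replicate 2 were Postn (SD 1.30), Fndc1 (1.24), Slc7a10 (1.30), S100a8 (1.36) and Dbp (1.11).

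**Figure D4:**
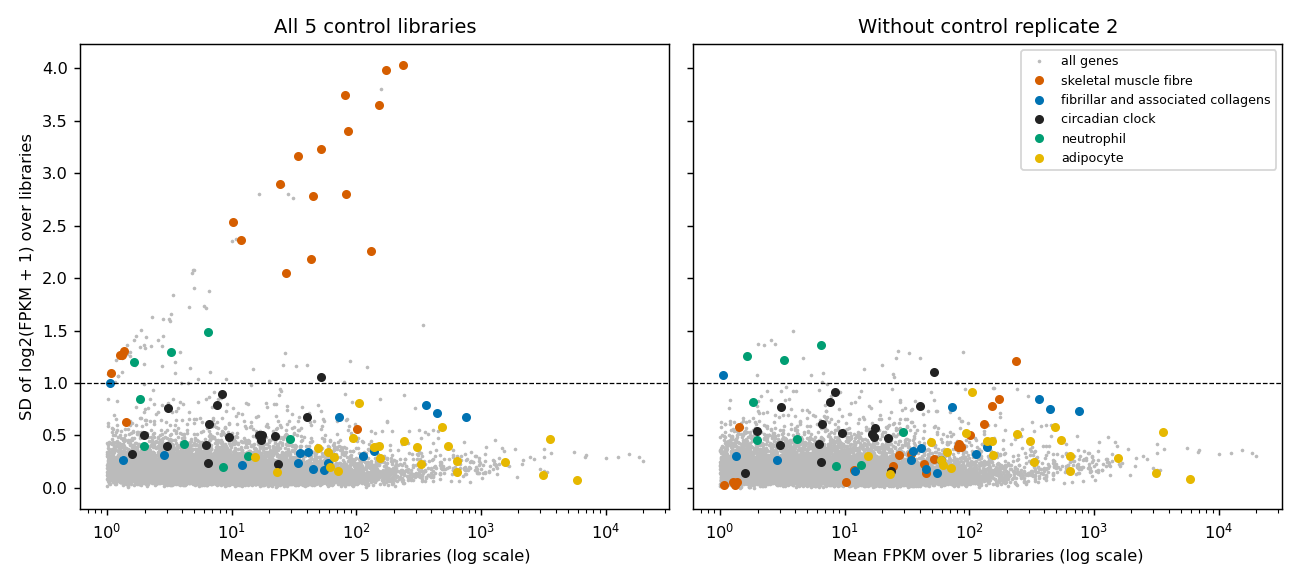
SD of log2(FPKM + 1) between libraries against mean FPKM over the 5 control libraries (log axis) for the 12149 genes with a mean of at least 1 FPKM, with all 5 libraries (left) and without replicate 2 (right); the dashed line marks an SD of 1. Muscle fibre genes have a median SD of 2.53 on the left and 0.31 on the right, and adipocyte genes one of 0.30 and 0.31.

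Circadian clock genes were spread widely, with replicate 17 apart from the rest. In the clock, the activators BMAL1 and CLOCK, or its relative NPAS2, drive the Per, Cry, Nr1d and Dbp genes. The products of the Per, Cry and Nr1d genes feed back on the activators. Dbp, a transcription factor at the clock's output, had 22.1, 31.5, 36.3, 25.6 and 143 FPKM, and Nr1d1, the repressor REV-ERB alpha, 37.96, 33.4, 29.1, 21.2 and 77.8 FPKM. Per3 and Per2, which encode period proteins, had 3.66, 5.69, 5.78, 5.02 and 21.8 FPKM and 3.79, 4.42, 6.59, 5.14 and 13.1 FPKM. Replicate 17 was the highest library for each of these, at 4.96 times the mean of the other control libraries for Dbp and 4.33 times for Per3.

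The same held for Nr1d2, the second REV-ERB gene, with 14.1, 14.95, 13.3, 13.9 and 31.9 FPKM, for Tef, a relative of Dbp, with 14.7, 17.6, 21.96, 19.2 and 37.9 FPKM, and, at low level, for the repressor gene Ciart with 0.219, 0.171, 0.275, 0.164 and 1.36 FPKM. Cry2, a cryptochrome, moved less, with 18.4, 22.8, 22.6, 23.8 and 29.1 FPKM. Of the activators, Bmal1 and Npas2 lay the other way. Bmal1 had 10.95, 9.62, 6.74, 9.03 and 2.099 FPKM and Npas2 4.84, 4.85, 1.56, 3.37 and 0.768 FPKM, each lowest in replicate 17 and next lowest in replicate 11. Clock had 7.28, 7.66, 5.04, 6.92 and 5.38 FPKM, low in the same pair of libraries but lowest in replicate 11. The ratio of Dbp to Bmal1 was 2.02, 3.28, 5.39, 2.84 and 68.3 in the 5 libraries. Of 17 clock genes with a mean of at least 1 FPKM, 11 were highest in replicate 17. Of the same 17 genes, 9 had an SD of at least 0.5 (52.9%, against 2.82% of all 12149 genes). Without replicate 17, 1 clock gene had such an SD, and the share of all genes was not counted. The labels give no time of day at which tissue was taken, and its part was not tested.

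Upstream stretches are shown for 4 clock genes that moved together or against each other and whose windows hold a motif named below. They do not stand for the whole clock list. They are from RefSeq on GRCr8, 250 bases before the start, for Ciart (chr2:186112247-186112496, minus strand), Nr1d1 (chr10:84229455-84229704, minus strand), Per2 (chr9:99496994-99497243, minus strand) and Bmal1 (chr1:176766078-176766327, plus strand). Capitals mark the E-box CACGTG, which BMAL1 complexes bind, in Ciart and Nr1d1, the D-box TTATGNAA, bound by Dbp and its relatives, in Per2, and the letters TNGGTCA, the core bound by REV-ERB and ROR receptors, in Bmal1.
Ciart: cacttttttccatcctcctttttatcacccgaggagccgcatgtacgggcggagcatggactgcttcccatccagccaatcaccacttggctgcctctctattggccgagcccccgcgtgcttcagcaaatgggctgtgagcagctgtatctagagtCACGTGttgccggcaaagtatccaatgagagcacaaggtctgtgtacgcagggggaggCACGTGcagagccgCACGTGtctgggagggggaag
Nr1d1: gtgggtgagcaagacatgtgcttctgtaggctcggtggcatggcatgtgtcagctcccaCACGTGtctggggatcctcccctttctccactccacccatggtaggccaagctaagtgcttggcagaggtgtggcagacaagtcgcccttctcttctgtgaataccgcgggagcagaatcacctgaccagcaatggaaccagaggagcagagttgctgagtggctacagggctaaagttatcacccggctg
Per2: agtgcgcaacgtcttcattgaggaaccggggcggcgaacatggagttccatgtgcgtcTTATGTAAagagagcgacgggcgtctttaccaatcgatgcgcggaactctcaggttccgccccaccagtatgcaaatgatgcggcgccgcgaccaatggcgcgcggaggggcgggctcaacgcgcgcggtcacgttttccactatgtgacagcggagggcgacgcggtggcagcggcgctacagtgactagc
Bmal1: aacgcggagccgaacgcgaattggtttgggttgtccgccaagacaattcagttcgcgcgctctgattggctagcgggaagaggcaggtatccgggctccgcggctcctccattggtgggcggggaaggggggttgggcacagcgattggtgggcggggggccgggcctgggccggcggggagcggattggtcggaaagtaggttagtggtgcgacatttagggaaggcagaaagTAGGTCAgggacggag
The 15 clock genes with a window had 17 windows, searched on both strands. The E-box was in 5 of the 17 (29.4%, in Bhlhe40, Bhlhe41, Ciart, Nr1d1 and Tef). It was in 5.59% of all windows and 8.22% of windows of genes with a mean of at least 1 FPKM. The D-box was in 1 of the 17 (5.88%, in Per2), against 3.28% of all windows. TNGGTCA was in 1 of the 17 (5.88%, in Bmal1), against 9.47%. Overlap between different motifs was not removed.

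**Figure D5:**
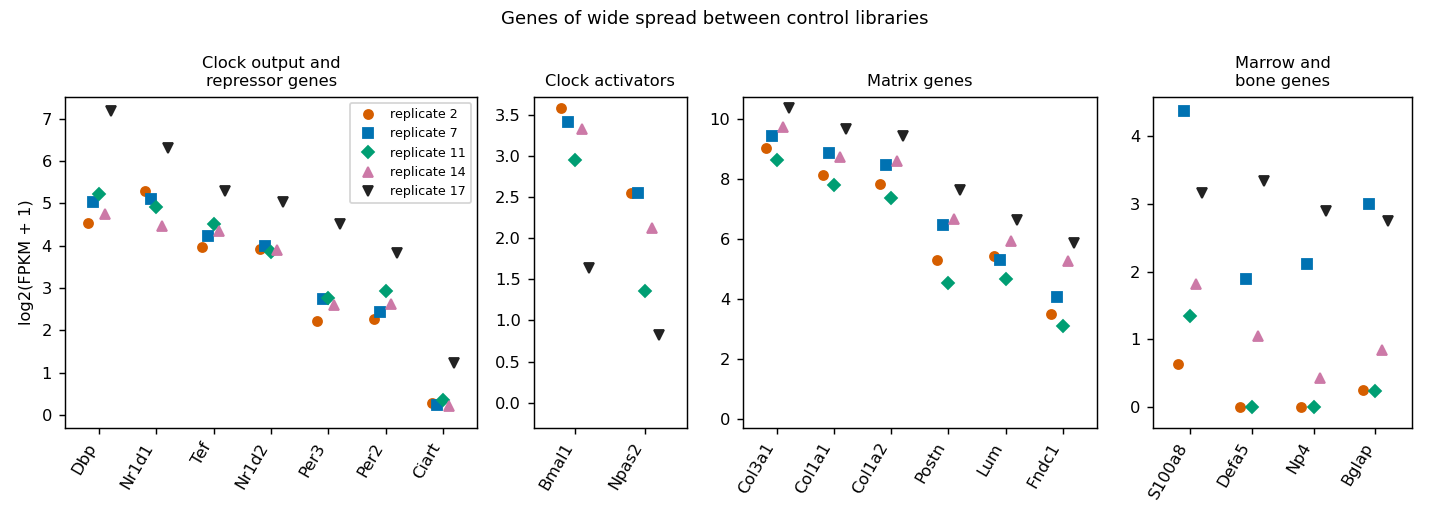
log2(FPKM + 1) of genes of wide spread in the 5 control libraries, in 4 groups; each symbol is 1 library, and symbols are shifted sideways for legibility. Replicate 17 is highest for the clock output and matrix genes and lowest for Bmal1 and Npas2. Replicates 7 and 17 are highest for the granulocyte and bone genes, in the panel headed marrow and bone.

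Response genes that change within minutes to hours also differed between libraries. Of 21 immediate early genes with a mean of at least 1 FPKM, 10 were highest in replicate 17 and 14 lowest in replicate 14. When the libraries were scaled by TMM or by DESeq2 size factors, replicate 17 again had the highest score of this list, while the lowest passed to replicate 7. Egr3 had 0.572, 0.569, 1.27, 0.658 and 6.78 FPKM and Nr4a1, an orphan nuclear receptor, 10.4, 10.1, 9.75, 6.09 and 30.8 FPKM, both transcription factors induced by cell stimulation. Fos was even by comparison, at 8.82, 6.67, 10.6, 5.64 and 9.58 FPKM. Cish, a feedback inhibitor of STAT5 signalling, had 17.2, 69.8, 7.55, 31.99 and 38.7 FPKM, high in replicate 7 and lowest in replicate 11. Ddit4, a stress gene that glucocorticoids also induce, had 127, 59.1, 137, 52.98 and 24.4 FPKM and the cell cycle inhibitor Cdkn1a 43.1, 16.4, 20.5, 20.4 and 8.29 FPKM, both lowest in replicate 17.

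Mitochondrially encoded, blood and sex-linked transcripts give the remaining differences. All 13 mitochondrial genes were highest in replicate 14, and 12 were lowest in replicate 17. ND6, the subunit encoded on the other strand of the mitochondrial genome, had 40.5, 40.1, 22.6, 54.3 and 16.5 FPKM. Red cell transcripts were present, with the globin gene Hba-a1 at 1334 ± 123 FPKM (copies of the globin genes are near-identical), and Alas2, the first enzyme of haem synthesis in red cells, at 6.04 ± 0.858 FPKM. Xist, the RNA of the inactive X chromosome, had 48.8, 71.4, 30.8, 34.6 and 87.4 FPKM and the Y-linked Ddx3y at most 0.105 FPKM in all 5 libraries. Tnmd, the tendon marker tenomodulin, was at 0.943 ± 0.499 FPKM and, like the fibrillar collagens, was lowest in replicate 11 and highest in replicate 17 (0.762, 0.906, 0.264, 1.16 and 1.62 FPKM).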

How the data were processed

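Per the labels' protocols, RNA was harvested from synovial tissue with a column kit, and 1.3 ug per sample was made into mRNA libraries with a SMARTER kit. The authors deposited raw counts and FPKM values as separate tables with a column for each library, over the same 23342 rat gene symbols. Every deposited FPKM value with a count (96649 in the control libraries) could be recomputed from the count, 1 length per gene and the library total within 0.1%. The aligner and counting program were not given in the sources used here. GRCm38 and mm10, both mouse builds, are named in the submitters' processing notes, so the annotation behind the counts is uncertain and no coordinates of the authors were used. Strandedness is not stated, so overlapping and antisense genes cannot be told apart.

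The 5 control libraries were described with no comparison between groups, and the one test applied was Dixon's quotient, used to find a library apart from the others. The spread is the SD of log2(FPKM + 1) among genes with a mean of at least 1 FPKM. Counting error was taken from the raw counts as deposited, and intervals and floors (3 counts) cover counting error only. A list score is the mean log2(FPKM + 1) of members with a mean of at least 1 FPKM. Counts of members highest or lowest in a library have no count over all genes beside them. They describe the members and do not set a list apart from other genes. The 40 lists hold 647 names, 628 of them in the table. Some lists share genes (Prg4 is in 3 lists, Cfd is in the adipocyte and complement lists, and Eno3 is in the muscle fibre and glycolysis lists). The members and lists were chosen with earlier results of these data known.

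Genes were named by a rule: the 20 of highest mean outside mitochondrial and ribosomal protein genes, the 4 highest and the most variable of each list, the 20 most variable genes with and without replicate 2, the 10 steadiest at 100 FPKM or more, and cell type markers at 0. H19 and further list members shown for contrast were chosen after their values were seen. Python 3.11.15 (pandas 2.3.3) was used, with R 4.3.3, edgeR 4.0.16 and DESeq2 1.42.0 for scaling. The computation of spread was tested on simulated data. Alternatives were each library left out, TMM or DESeq2 size factor scaling, rescaling to an equal sum, another pseudocount, other filters, edgeR dispersions, shares of counts, and shares without mitochondrial, ribosomal and globin genes.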

Additional observations from a re-analysis of the deposited data

Results flagged for a closer look

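For 174 gene levels and 47 list or category shares, the library farthest from the others was examined. Its gap to the nearest library was divided by the range of the 5 libraries. Gene levels were taken as log2(FPKM + 1) and shares as untransformed percent, so quotients of genes and of shares are on different scales. A quotient above 0.71 marks a library that stands apart, and chance marks about 1 in 20 groups that were not picked by their values. Many of these genes were named for their level or spread, so that rate does not apply to the numbers here. It was exceeded by 23 gene levels and 6 shares, several of which are parts of each other.

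In replicate 2 the skeletal muscle genes Acta1 (0.721), Ckm (0.804), Myl11 (0.771), Tnnc2 (0.809) and Myh4 (0.900) lay far above the other control libraries. So did the myogenic genes Myod1 (0.951) and Pax7 (0.924), both at under 1 FPKM there, and the noncoding RNA H19 (0.830). The shares of muscle fibre genes (0.984), of the muscle category (0.984) and of glycolysis and hypoxia genes (0.767) were high in the same library, and the interferon-induced gene Ifi27 was low in it (0.809).

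In replicate 17 the clock genes Dbp (0.738), Per3 (0.764), Nr1d2 (0.870) and Ciart (0.871), the share of the clock list (0.882) and the immediate early gene Egr3 (0.770) were high. Shares of small leucine-rich proteoglycans (0.740) and of the matrix category (0.721) were also high there. The quotient of 1 for Il17a rests on a single library with any count, at 0.0266 FPKM.

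Replicate 7 was high for the antiviral gene Mx1 (0.869), the granulocyte gene Ngp (0.744) and the lymphatic gene Prox1 (0.721), and low for the myelin gene Pmp22 (0.873) and the neuron gene Stmn2 (0.756). Replicate 11 was high for the macrophage gene Folr2 (0.786) and low for the lipase gene Lpl (0.712), and replicate 14 was low for the myelin gene Mbp (0.773).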

How the results depend on the processing

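The number of genes with a mean of at least 1 FPKM stayed between 12090 and 13359 under all alternatives. With each library left out in turn it ran from 12090 to 12196, the share of the 100 highest genes from 41.6 to 44.0%, the number of genes with an SD of at least 1 from 26 (without replicate 2) to 100, and the share of squared deviations in replicate 2 from 39.8 to 44.6%. As shares of counts, the 100 highest genes held 28.0%, matrix genes 5.05%, immune genes 1.69%, fat genes 2.63% and vessel genes 0.931%. With mitochondrial, ribosomal protein and globin genes out of the total, the 100 highest held 27.4%, and secreted genes 4.11%, matrix 3.27%, immune 3.03%, fat 5.38%, vessel 1.09% and nerve genes 0.199%. Among genes of at least 10 FPKM, 32 had an SD of at least 1, and the other alternatives gave 71 to 126. Alternatives chosen after the data were seen left 11 muscle genes of 22 at 1 FPKM without replicate 2, and 10 of 17 variable matrix genes and 1 of 9 variable clock genes without replicate 17. TMM scaling moved the SD of 5 of 174 named genes by over 1.5 times and a pseudocount of 0.1 that of 39, which follows from the construction for low genes. Leaving out 1 library moved the SD of 13 (without replicate 14) to 25 (without replicate 11) of them. The median of all genes shifted by less than 0.1 on the log2 scale under TMM and DESeq2 scaling and by 0.82 to 1.003 when rescaled to an equal and higher sum. At this depth counting limits only genes of few counts. No paired analysis was possible because no replicate number is shared between groups and no groups were compared.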

Other observations

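Stress proteins, glycolytic enzymes and basement membrane genes were also part of the resting tissue. The chaperones Hspa8, Hspb1 and Hspa5 averaged 476 ± 59.7, 198 ± 21.2 and 186 ± 10.7 FPKM (SD, n = 5), and the mitochondrial chaperonin Hspe1 varied little, at 83.2 ± 2.39 FPKM. Lactate dehydrogenase was present as both chains, with Ldha at 194 ± 34.4 FPKM and Ldhb at 112 ± 10.1 FPKM. The laminin chains Lamb2 and Lamc1 were at 171 ± 14.2 and 46.0 ± 5.14 FPKM, and perlecan (Hspg2) at 54.5 ± 9.27 FPKM.

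Of 10 osteoclast markers, 4 reached a mean of 1 FPKM. Ctsk, encoding cathepsin K, which synovial fibroblasts also express, was at 64.3 ± 5.59 FPKM and Acp5, encoding tartrate-resistant acid phosphatase, at 12.9 ± 1.81 FPKM, while the fusion protein gene Dcstamp averaged 0.0247 FPKM. The receptor RANK (Tnfrsf11a) was at 3.51 ± 0.898 FPKM. The macrophage receptor genes Csf1r and Lyve1 averaged 72.7 ± 7.46 and 75.7 ± 21.9 FPKM, and Lyve1, which lymphatic endothelium shares, was highest in replicate 2, with replicate 11 next.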
